A study of Mus musculus with 7 samples.

Results

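The histone genes described here are the clustered core histone genes and the linker histone genes of the mouse. They were chosen by symbol, as every gene in the deposited table whose symbol was H1f, H2ac, H2bc, H3c or H4c followed by a number, and 61 of the 55364 genes listed met this rule. They comprised 10 linker H1 genes, 15 H2A genes, 14 H2B genes, 12 H3 genes and 10 H4 genes. No expression value entered the choice, although it was made with earlier results of these data known.

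Their RNA was measured in 7 libraries of mini-oocytes, oocyte-like cells made in culture without gonadal somatic cells from BVSC H18 female mouse embryonic stem cells of hybrid 129/C57BL6 background. In 4F-mini-oocytes, forced expression of Nobox, Figla, Tbpl2 and Lhx8 was used, and 8F-mini-oocytes carried Stat3, Dynll1, Sub1 and Sohlh1 in addition. All cultures received SCF, Y-27632 and Shield1, the ligand that stabilises the induced factors, with Shield1 left out of fresh medium from day 12. The groups were 4F-mini-oocytes at day 7 (n = 2), 4F-mini-oocytes at day 21 (n = 3) and 8F-mini-oocytes at day 21 (n = 2). Each library pooled cells, with many more cells per library at day 7 than at day 21, so day and cell number changed together and cannot be told apart. The 4F and 8F cells were separate engineered lines of the same parental cells, and the 8F line carried an Npm2-mCherry reporter. Cell line and factor set therefore cannot be told apart. The 4F and 8F columns also differ in the number of decimals deposited, so a difference in how they were made and the factor set cannot be told apart. Nothing states whether equal groups came from separate inductions, and p-values then measure only the spread between these libraries. In pooled samples, fewer cells of a type and less RNA per cell cannot be told apart.

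Histones package DNA. Core histones H2A, H2B, H3 and H4 form the nucleosome, and linker histone H1 binds where DNA enters and leaves it. The clustered genes are short and mostly without introns, they are transcribed mainly in S phase, and their mRNAs end in a conserved stem-loop in place of a poly(A) tail. The stem-loop is bound by SLBP, which the U7 snRNP machinery needs for cutting the transcript. Oocytes store histone mRNA and protein for the first divisions of the embryo, and they carry their own linker histone, encoded by H1f8 (formerly H1foo). The library kit starts cDNA from random primers, so it can read RNA without a poly(A) tail.

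The stem-loops are shown because they mark the mRNAs of this family. In the transcripts of GENCODE vM21, 46 of the 61 genes had at least 16 annotated bases after the stop codon, and 36 of these 46 (78.3%) held a 16-base inverted repeat made of a 6-base stem that opens with GG and closes with T and a 4-base loop that opens with TT. Of 21072 other genes with at least 16 such bases, 25 (0.119%) held it. Capitals mark the stem and lower case the loop in the 6 forms found.
form in 21 genes: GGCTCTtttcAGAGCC
form in 6 genes: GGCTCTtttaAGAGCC
form in 4 genes: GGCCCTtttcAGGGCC
form in 2 genes: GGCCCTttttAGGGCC
form in 2 genes: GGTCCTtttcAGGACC
form in 1 gene: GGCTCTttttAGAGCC
The most frequent form stood in H1f2, H1f3, H1f4, H2ac18 and H2ac19 among others. It was not found in the annotated tails of the linker genes H1f0, H1f1, H1f7, H1f8 and H1f10. The remaining 15 genes, H4c12 and H2ac1 among them, were annotated with too few bases after the stop codon to be searched.

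Promoters are shown for 4 genes whose levels the results turn on, as the 250 bases before the RefSeq start (GRCm38.p6), on the strand of the gene and from 5′ to 3′. Capitals mark TATAAA and CCAAT on either strand in H1f1, H2ac1 and H4c12 (which held no CCAAT), and also the octamer ATTTGCAT on either strand in H2ac1. In H1f8, which held no TATAAA, capitals mark the E-box CANNTG, the site class of Figla and Sohlh1, which are bHLH proteins. The marking differs between genes, as CANNTG also stands in H2ac1 and H4c12, where it is left unmarked. H1f8 likewise holds unmarked CCAAT matches on the other strand (ATTGG), 45 and 86 bases before the start.
H1f8, chr6:115944681-115944930, plus strand: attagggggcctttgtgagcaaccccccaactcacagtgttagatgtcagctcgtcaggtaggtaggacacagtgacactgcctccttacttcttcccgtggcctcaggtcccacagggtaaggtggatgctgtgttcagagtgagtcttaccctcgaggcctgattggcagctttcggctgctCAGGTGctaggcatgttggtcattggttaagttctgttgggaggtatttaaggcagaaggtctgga
H1f1, chr13:23763418-23763667, plus strand: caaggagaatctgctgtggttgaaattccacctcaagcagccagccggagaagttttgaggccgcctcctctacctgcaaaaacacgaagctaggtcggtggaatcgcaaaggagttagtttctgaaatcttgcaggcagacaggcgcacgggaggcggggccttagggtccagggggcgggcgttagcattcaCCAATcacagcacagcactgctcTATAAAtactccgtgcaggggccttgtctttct
H2ac1, chr13:23934187-23934436, plus strand: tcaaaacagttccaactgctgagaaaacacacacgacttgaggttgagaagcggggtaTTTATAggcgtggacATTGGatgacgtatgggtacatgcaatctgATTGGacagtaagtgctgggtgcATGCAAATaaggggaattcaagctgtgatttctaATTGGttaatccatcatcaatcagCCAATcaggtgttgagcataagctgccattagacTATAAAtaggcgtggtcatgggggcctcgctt
H4c12, chr13:21750554-21750803, minus strand: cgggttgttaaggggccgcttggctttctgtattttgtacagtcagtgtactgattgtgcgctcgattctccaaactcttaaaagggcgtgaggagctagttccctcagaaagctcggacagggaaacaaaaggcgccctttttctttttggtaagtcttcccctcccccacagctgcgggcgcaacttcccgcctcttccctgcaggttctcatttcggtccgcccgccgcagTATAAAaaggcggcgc
Of the 55 histone promoters found in RefSeq, 80% held CCAAT against 34.5% of all 27025 promoters of this length, and 43.6% held TATAAA against 13%. The octamer stood in 12 histone promoters (21.8% against 1.61%), of which 6 were H2A and 6 were H2B promoters. CANNTG was found in 58.2% against 66%, TAATTG, the letters bound by Nobox, in 10.9% against 7.34%, and TTCNNNGAA, the STAT letters, in 1 histone promoter, that of H1f4 (1.82% against 7.18%). Both strands were searched for every motif, and in H2ac1 the letters TAATTG overlap one CCAAT. These are letter matches, and they are no measure of binding.

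The libraries held between 9051775 and 17190253 estimated reads on genes. The genes form a group whose members share sequence, and this limits what single values mean. In the median histone gene, 56.8% of all 50-base windows occurred in no transcript of another locus, with a range from 0 to 100%. The H1 genes were nearly free of sharing (91.5% or more in each), whereas the class medians were 32.9% for H2A, 58.1% for H2B, 42.8% for H3 and 65.8% for H4. With 150-base windows the median over all 61 genes was 82.6%. Only uniquely mapped reads were counted by the authors, so reads within a shared stretch may go uncounted. A low share of unshared windows did not always go with few reads. H2ac19, with 0% of windows unshared, had 1084 and 716 estimated reads in 8F, and H2ac18, with 3.72%, had 3059 and 1729. In 23 of the 61 genes, the 15 H2A genes included, exons of another gene lay on the same bases, and no strand option is stated for the counting. The defining oocyte genes Zp1, Zp2, Zp3, Gdf9, Bmp15, Nlrp5, Ooep, Oosp1 and Npm2 summed to 5814 to 7592 TPM at day 7, 28753 to 31307 TPM in 4F at day 21 and 24337 to 24988 TPM in 8F. The 6 granulosa markers summed to at most 5.56 TPM in any library with Inha listed at 0 in all, and the 5 fibroblast and smooth muscle markers to at most 7.09 TPM with Col3a1 listed at 0 in all.

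The histone genes together made up 0.574 to 0.618% of all TPM at day 7, 0.810 to 0.902% in 4F at day 21 and 1.29 to 1.48% in 8F at day 21. The 10 genes with the highest TPM held 28.5 and 31.8% of it at day 7. In 4F at day 21 they held 10.2 to 11.5%, and in 8F 12.7 and 14.0%. Shares of the remaining genes over time depend on this, and the total was not given another scaling. The classes did not move as a block. Summed H1 TPM was 2272 and 2323 at day 7, then 6473, 5661 and 5789 in 4F at day 21, then 7470.4 and 6537 in 8F. Summed H3 TPM was 541 and 485 at day 7, then 143, 115 and 147 in 4F at day 21, then 701 and 695 in 8F. Summed H4 TPM was 1230.1 and 1031 at day 7, then 239, 307 and 224 in 4F at day 21, then 1287 and 1317 in 8F. H3 and H4 were thus lowest in the 4F libraries of day 21 with no overlap with either other group, while H1 was lowest at day 7.

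Summed H2B TPM was 1318 and 1181 at day 7, 1479.5, 1583 and 1449 in 4F at day 21, and 2850.3 and 2552 in 8F. Summed H2A TPM was 815 and 722 at day 7, 686, 503 and 494 in 4F at day 21, and 2507 and 1804 in 8F. The 8F libraries were highest in both classes. The mean sums of 8F over 4F at day 21 stood at 1.17-fold for H1, 3.84-fold for H2A, 1.80-fold for H2B, 5.17-fold for H3 and 5.07-fold for H4. From day 7 to day 21 in 4F the ratios were 2.60 for H1, 0.730 for H2A, 1.20 for H2B, 0.263 for H3 and 0.227 for H4. The H2B ratio over time turned to a decrease under each of 3 other scalings, with log2 values of -0.07, -0.20 and -0.41 against 0.27, and the H2A ratio turned to an increase, 0.51 against -0.45 on the log2 scale, when only genes with at least 50% unshared windows were summed. That choice also brought the H2A ratio of 8F over 4F to 1.29 against 1.94 on the log2 scale. On shares of estimated reads, the log2 ratio over time was 0.71 against 1.38 for H1 and -2.59 against -1.93 for H3.

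**Figure D1:**
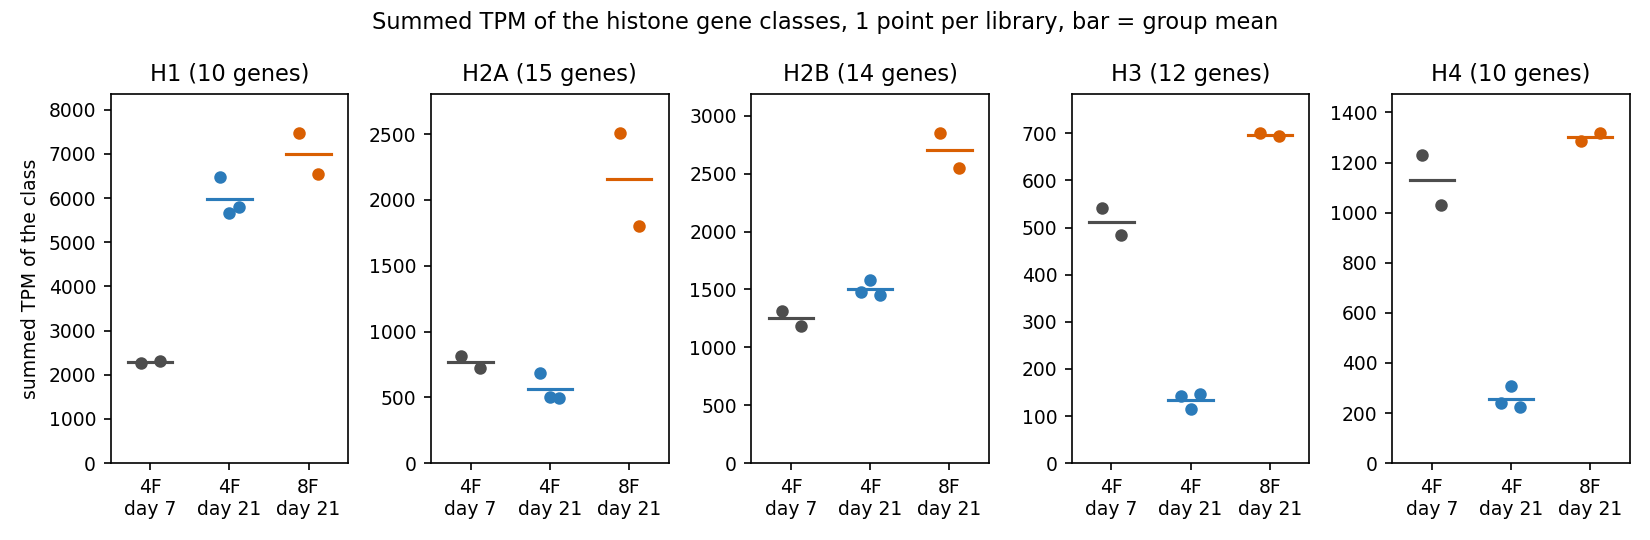
Summed TPM (y axis, from 0, a separate scale per panel) of the H1, H2A, H2B, H3 and H4 genes in the 3 groups, with 1 point per library and a bar at the group mean. H3 and H4 are lowest in 4F at day 21, where the H4 sum lies between 224 and 307 TPM, and H1 is lowest at day 7.

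The balance between linker and core RNA differed between the groups. H1 genes held 36.8 and 40.5% of all histone TPM at day 7, between 69.3 and 71.8% in 4F at day 21 and 50.4 and 50.7% in 8F at day 21. Per unit of H4 RNA, summed H1 was 1.85 and 2.25 at day 7, 27.1, 18.5 and 25.8 in 4F at day 21, and 5.81 and 4.96 in 8F. The ratio of H3 to H4, the partners of the tetramer at the centre of the nucleosome, lay between 0.374 and 0.657 in all 7 libraries. The ratio of H2A to H2B, the other pair, lay between 0.318 and 0.880, highest in 8F.

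Among the linker histone genes, H1f8 (ENSMUSG00000042279.13, chromosome 6, 115944938 to 115950236, plus strand, 1201 exonic bases), the oocyte linker histone gene, had 658 and 760 TPM at day 7, 3807, 3432 and 3509 TPM in 4F at day 21 and 2429 and 2506 TPM in 8F. The 3 groups did not overlap, and the 8F libraries lay between the others. Over time in 4F it rose by 2.34 on the log2 scale (SE 0.124, adjusted p = 7.04e-05). This and every adjusted p below come from limma, with the Benjamini-Hochberg procedure run over all 21780 genes tested. In 8F at day 21 it was lower than in 4F, with a log2 difference of -0.54 (SE 0.124, adjusted p = 0.0491, limma), a call that held in 3 of 10 other settings. H1f8 supplied 29.0 and 32.7% of H1 TPM at day 7, 58.8, 60.6 and 60.6% in 4F at day 21, and 32.5 and 38.3% in 8F.

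H1f1 (chromosome 13, 23763666 to 23764406, plus strand), formerly Hist1h1a and a replication-dependent subtype, had 876 and 913 TPM at day 7. Its values were 2103, 1608 and 1647 TPM in 4F at day 21 and 4222 and 3398 TPM in 8F. No group overlapped with another, and the order was day 7, then 4F at day 21, then 8F. The log2 difference was 1.09 for 8F minus 4F (SE 0.169, adjusted p = 0.0159, limma) and 0.99 for day 21 minus day 7 in 4F (SE 0.169, adjusted p = 0.00432, limma). Its share of H1 TPM was 38.6 and 39.3% at day 7, 28.4 to 32.5% in 4F at day 21 and 56.5 and 52.0% in 8F, so that H1f1 stood above H1f8 in both 8F libraries and below it in the 3 4F libraries of day 21. The day 21 rise of H1f1 lost its call in the fit on estimated reads.

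The other linker genes fell into sets by their pattern. H1f0, a replacement linker histone of cells that have left the cycle, had 34.6 and 53.3 TPM at day 7, 118, 169 and 151 TPM in 4F at day 21, and 54.8 and 62.6 TPM in 8F. H1f10 (formerly H1fx), another replacement subtype, had 15.5 and 18.02 TPM, then 100.4, 95.3 and 95.2 TPM, then 66.5 and 56.8 TPM. Both were lower in every 8F library than in every 4F library of day 21, with log2 differences of -1.29 (adjusted p = 0.0233) and -0.65 (adjusted p = 0.0338) in limma. With H1f8, they were the 3 histone genes called lower in 8F, and all 3 rose from day 7 to day 21 in 4F, H1f0 by 1.73 and H1f10 by 2.47 on the log2 scale. Leaving out either 8F library, or replicate 2 or 3 of 4F at day 21, removed the calls of all 3 between 8F and 4F, as did the fit without a variance trend.

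The subtypes H1f3 and H1f4, made in S phase, ran the other way. H1f4 had 172 and 146 TPM at day 7, 31.2, 41.0 and 48.9 TPM in 4F at day 21, and 143 and 132 TPM in 8F. It fell over time in 4F by 1.97 log2 units (adjusted p = 0.000519, limma) and was higher in 8F than in 4F by 1.76 (SE 0.196, adjusted p = 0.00676, limma). H1f3 had 45.2 and 34.5 TPM, then 10.9, 20.2 and 13.8 TPM, then 37.0 and 35.3 TPM, with log2 differences of -1.38 over time and 1.26 for 8F minus 4F. For both genes the 4F libraries of day 21 lay below all others. H1f4 shares exonic bases with H2bc6 on the same strand.

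H1f2, the third most abundant linker gene, had 368 and 341 TPM at day 7, 287, 294 and 319 TPM in 4F at day 21, and 513 and 337 TPM in 8F, and passed the test in no comparison. H1f5, another S phase subtype, fell from 57.6 and 32.0 TPM at day 7 to 0.0948, 0 and 3.85 TPM in 4F at day 21 and was listed at 3.23 and 10.0 TPM in 8F. H1f6, the testis subtype H1t, had 40.5 and 25.6 TPM at day 7 and then 12.4, 1.26 and 1.57 TPM in 4F at day 21 and 1.69 and 0 TPM in 8F, with a fall over time in 4F (adjusted p = 0.0354, limma). H1f7, a spermatid gene, had 5.26 TPM in 1 library of day 7, 3.10 TPM in 1 of 4F at day 21, and 0 in the other 5 libraries.

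**Figure D2:**
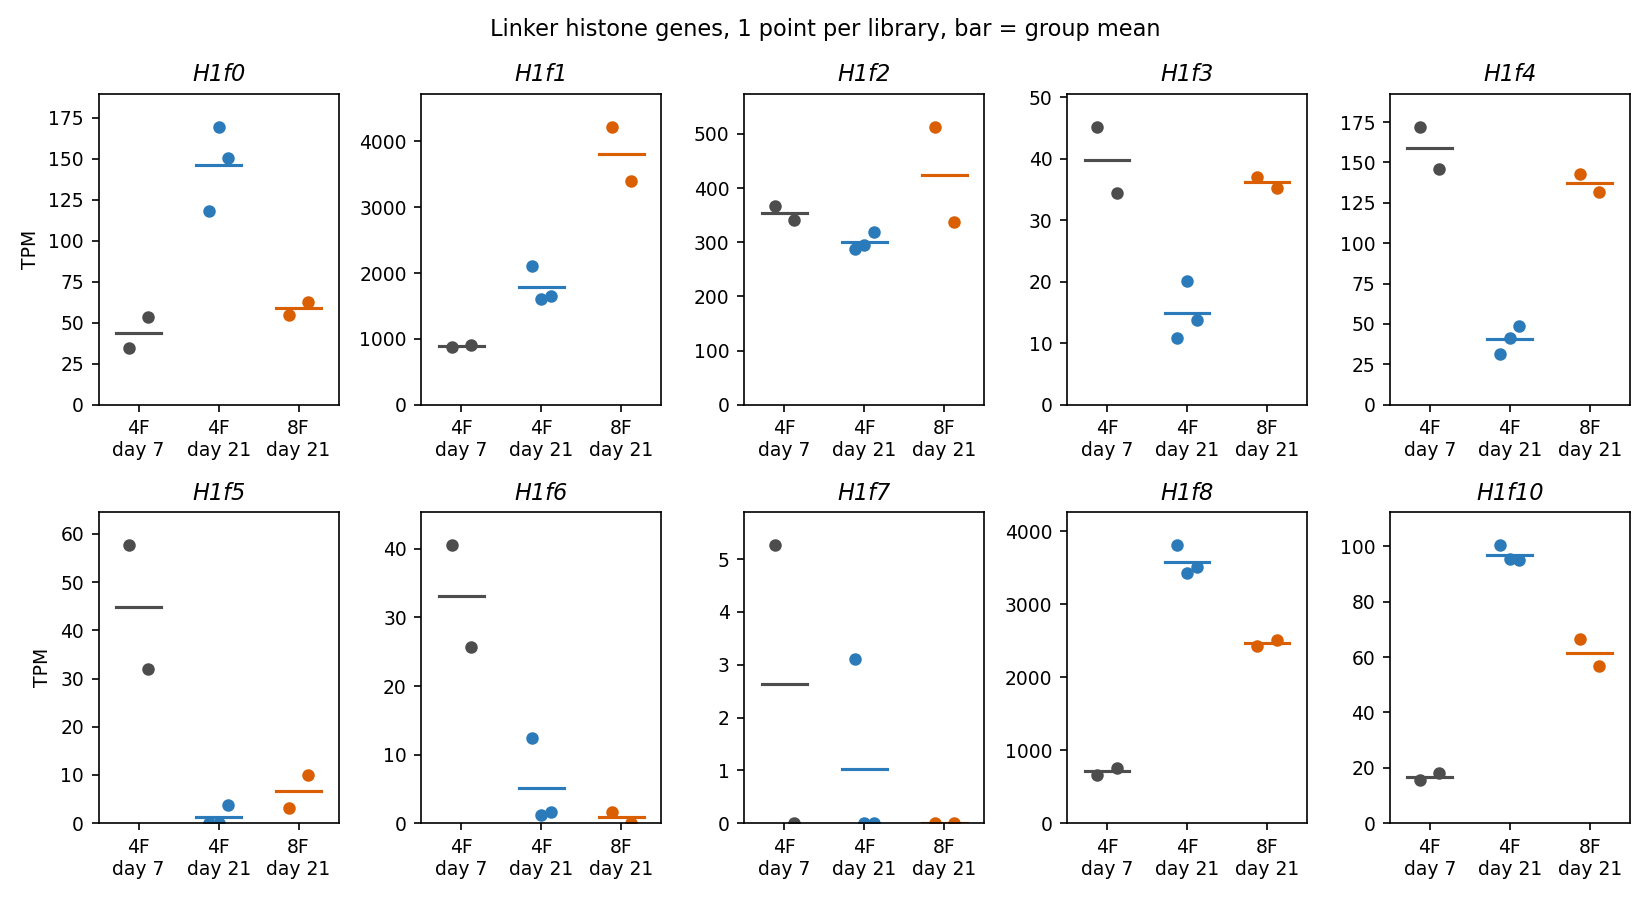
TPM (y axis, from 0, a separate scale per panel) of the 10 linker histone genes in the 3 groups, with 1 point per library and a bar at the group mean. H1f0, H1f8 and H1f10 peak in 4F at day 21, H1f3 and H1f4 are lowest there, and H1f1 is highest in 8F.

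The comparison of 8F with 4F at day 21 sets both lines side by side at the same day, and factor set and cell line differ together. Of the 61 histone genes, 59 reached 1 TPM in at least 2 libraries and were tested. H2ac7 (at most 1.30 TPM) and H2bc21 (at most 5.12 TPM) were not. In 8F, 28 of the 59 (47.5%) were called higher and 3 (5.08%) lower, where 8.37% of all 21780 genes tested passed FDR 0.05, with 3.95% of those tested above 0 and 4.41% below. The 8F libraries lay above every 4F library in 44 of the 59 genes and below in 4, where 24.1% and 19.8% of all genes tested did so. The median log2 fold change was 1.93 over the 59 genes and 0.06 over all genes. By class, 3 of 10 H1, 5 of 14 H2A, 8 of 13 H2B, 6 of 12 H3 and 6 of 10 H4 genes tested were higher, and the class medians were -0.03, 1.54, 2.24, 2.33 and 2.49. No core histone gene was called lower. Without 1 of the 8F libraries the calls came down to 3 (without replicate 1) or 4 (without replicate 2), at 0.41% and 0.466% of all genes called, and H2ac18, H2ac19 and H4c12 were called in both, with H2bc9 in the latter. The fit without a variance trend called 17, at 4.56% of all genes.

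Among H4 genes, H4c12 (ENSMUSG00000064288.4, chromosome 13, 21750194 to 21750505, minus strand) is annotated as a coding-only gene model of 312 bases. Both libraries of day 7 had it at 261 and 216 TPM, while it was listed at 0 in the 3 4F libraries of day 21 and had 38.0 and 70.8 TPM in 8F. In its 8F libraries 69 and 125 estimated reads stood behind the values, and 3 reads would have shown as about 2.19 TPM in the 4F libraries. The fitted log2 difference, 5.72 (SE 0.300, adjusted p = 0.000806, limma), depends on the pseudocount and ran from 3.51 to 9.02 over the settings, called in each of them. Of its 50-base windows, 28.5% occurred in no transcript of another locus.

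H4c4, the most abundant H4 gene at day 7 and in 8F, had 274 and 218 TPM at day 7, 49.7, 20.6 and 52.3 TPM in 4F at day 21, and 371 and 357 TPM in 8F. Its log2 difference between 8F and 4F was 3.23 (SE 0.387, adjusted p = 0.00795, limma), and 89.8% of its windows were unshared. H4c1 had 199 TPM in both libraries of day 7, 39.2, 32.0 and 13.1 TPM in 4F at day 21, and 255 and 249.6 TPM in 8F (log2 difference 3.26, adjusted p = 0.00958, limma). In both genes each 8F library was listed above every 4F library of either day, and the difference from day 7 was not called. H4c3, at 109 TPM in both libraries of day 7, stood at 13.5, 55.6 and 29.8 TPM and then at 222 and 208 TPM (log2 difference 2.88). H4c8 and H4c9 were also called higher, by 2.34 and 2.62, in 10 and 6 of 10 other settings. H4c2, H4c6, H4c11 and H4c14 had differences between 0.80 and 2.37 that missed the threshold.

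Among H3 genes, H3c7 had 15.5 and 34.9 TPM at day 7, 8.86, 15.9 and 1.42 TPM in 4F at day 21, and 130.4 and 121 TPM in 8F (log2 difference 4.10, SE 0.795, adjusted p = 0.0296, limma). H3c3 had 89.4 and 72.8 TPM, then 1.36, 2.19 and 7.57 TPM, then 74.9 and 53.6 TPM, with a log2 difference of 4.01. H3c1, the most abundant H3 gene in 8F, had 162 and 92.2 TPM, then 58.8, 20.7 and 50.5 TPM, then 216 and 199 TPM. In all 3 genes the 8F libraries lay above every 4F library of day 21. H3c13 had 40.4 and 47.0 TPM, then 46.2, 43.7 and 61.2 TPM, then 109 and 106 TPM, with no overlap between 8F and the other libraries (log2 difference 1.09, SE 0.172, adjusted p = 0.0169, limma). H3c6 was higher by 4.30 and H3c15 by 3.66, the last from at most 2.09 TPM in any 4F library to 27.8 and 29.3 TPM. The call of H3c6 held in 5 of 10 other settings and that of H3c15 in all 10. The H3c13 locus lies wholly under the antisense gene Gm20628. H3c2, H3c4, H3c8, H3c10, H3c11 and H3c14 had differences of 1.01 to 2.97 that were not called.

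Among H2A genes, H2ac18 (chromosome 3, 96245497 to 96246082, plus strand) had 59.9 and 56.7 TPM at day 7, 28.1, 21.8 and 21.5 TPM in 4F at day 21, and 896 and 522 TPM in 8F. Its neighbour H2ac19 had 11.9 and 16.3 TPM, then 63.2, 58.8 and 52.9 TPM, then 352 and 239.98 TPM. The log2 differences between 8F and 4F were 4.80 (SE 0.242, adjusted p = 0.000793, limma) and 2.30 (SE 0.210, adjusted p = 0.00446, limma). These genes are near-identical copies with 3.72 and 0% unshared windows, so reads cannot be divided between them with certainty. Each lies wholly under an antisense gene, and the antisense gene over H2ac18, Gm20633, was itself listed at 5.97, 5.81 and 4.45 TPM in 4F at day 21 and at 187 and 109 TPM in 8F. Gm20634, which overlaps H2ac18 on the same strand, was listed at 5.57, 5.17 and 4.30 TPM and at 180 and 106 TPM. Reads on shared bases were divided between overlapping genes, so these values are no separate measure of antisense or neighbouring RNA.

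H2ac1 (formerly Hist1h2aa, the testis and oocyte variant TH2A) had 160.4 and 124 TPM at day 7, 483, 269.6 and 272 TPM in 4F at day 21, and 907 and 763 TPM in 8F. Its divergent neighbour H2bc1 (formerly Hist1h2ba, TH2B) had 91.6 and 36.4 TPM, then 141, 95.3 and 190.0 TPM, then 804 and 750.5 TPM. Both were higher in 8F, H2ac1 by 1.34 (SE 0.278, adjusted p = 0.0358, limma) and H2bc1 by 2.50 (SE 0.421, adjusted p = 0.0206, limma), and 97.65% of the windows of H2ac1 were unshared. H2ac21 and the pseudogene H2ac14 were the other H2A genes called, by 2.19 and 2.12, the latter at no more than 4.69 TPM. The call of H2ac21 held in 6 of 10 other settings and that of H2ac14 in 8 of 9. H2ac15, among the most abundant H2A genes at day 7 with 126 and 147 TPM, was at 0.272, 5.17 and 0.910 TPM in 4F at day 21 and at 6.13 and 8.65 TPM in 8F, a difference that was not called. The remaining H2A genes tested, H2ac4, H2ac6, H2ac8, H2ac10, H2ac11, H2ac12, H2ac13 and H2ac20, had log2 differences between -0.88 and 2.04 and were not called.

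Among H2B genes, H2bc18 was the most abundant, at 436 and 565 TPM at day 7, 951, 1141 and 1013 TPM in 4F at day 21, and 977 and 911 TPM in 8F. The 8F and 4F libraries overlapped (log2 difference -0.13, SE 0.147, adjusted p = 0.695, limma). All of its 381 bases lie under exons of Gm20628 on the opposite strand, and part of them under the lincRNA gene Gm42743 on the same strand. The values of Gm42743 ran from 99.9 to 138 TPM at day 7 and from 224 to 271 TPM at day 21. Since reads on shared bases were divided between these genes, their values are not separate measures. H2bc11 had 99.8 and 110.0 TPM, then 166, 131 and 111 TPM, then 464 and 397 TPM (log2 difference 1.67, adjusted p = 0.00634, limma). H2bc4 had 51.6 and 82.2 TPM, then 159, 149.5 and 109.6 TPM, then 243 and 219 TPM, and missed the threshold between 8F and 4F (adjusted p = 0.124, limma).

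A further set of H2B genes was at or near 0 in 4F at day 21 and above it in 8F. H2bc15 had 177 and 98.5 TPM at day 7, was listed at 0 in the 3 4F libraries of day 21 and had 6.83 and 10.4 TPM in 8F. H2bc13 was at most 1.25 TPM in 4F at day 21 against 13.5 and 20.4 TPM in 8F, H2bc7 at most 1.00 TPM against 11.5 and 5.18 TPM, H2bc14 at most 0.605 TPM against 6.00 and 3.38 TPM, and H2bc6 at most 0.414 TPM against 5.60 and 4.56 TPM. These 5 and H2bc9, with 7.37, 9.32 and 12.4 TPM against 94.1 and 58.7 TPM, were called higher, with log2 differences from 2.15 to 3.52. The call of H2bc7 held in 3 of 10 other settings and that of H2bc14 in 5. The calls of H2bc6, H2bc9, H2bc13 and H2bc15 held in all 10. H2bc3, H2bc8 and H2bc12 were not called. H2bc12 had 54.7, 49.1 and 5.01 TPM in 4F at day 21 against 208 and 158 TPM in 8F. Most of the low values in this set rest on few reads, as in H2bc15 with 15 and 22 estimated reads in the 8F libraries.

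**Figure D3:**
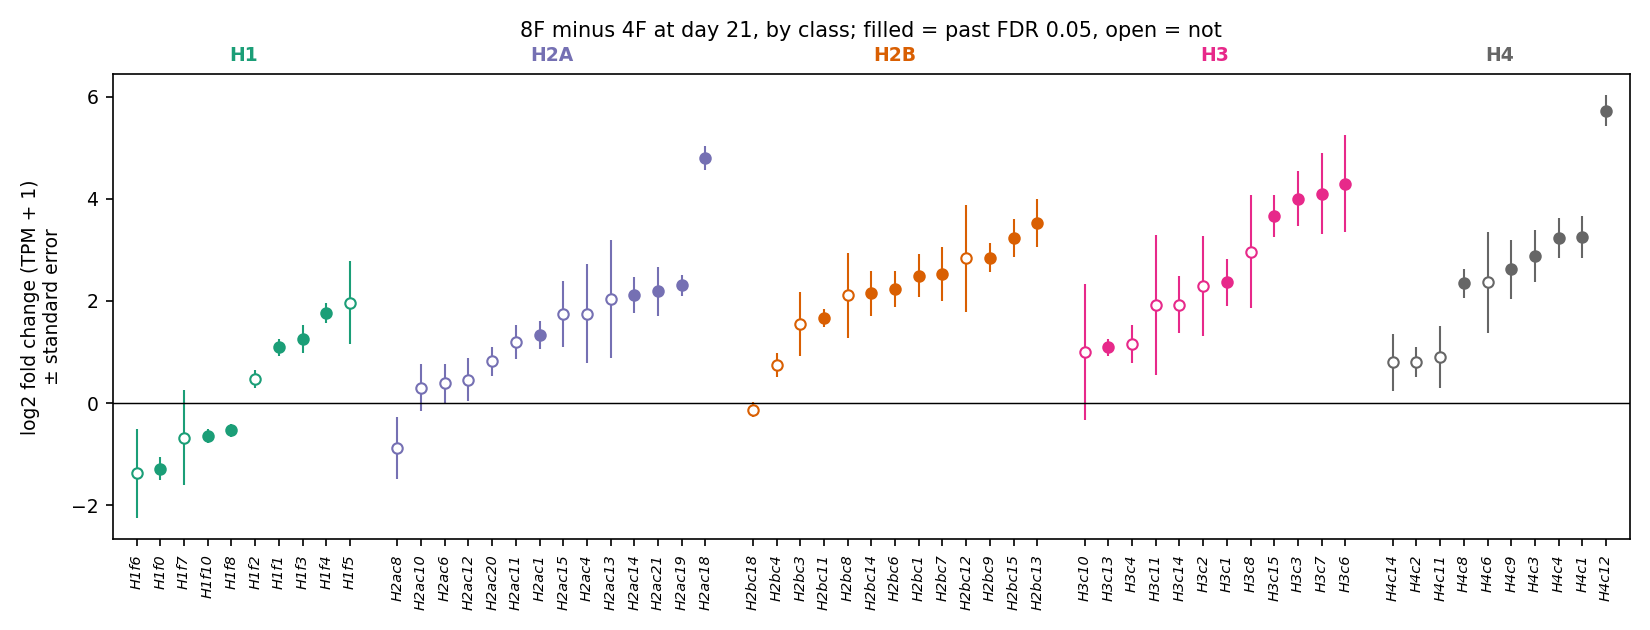
Log2 fold change of TPM + 1, 8F minus 4F at day 21 (y axis, with the standard error, SE, as bars), for the 59 histone genes tested, ordered within the classes H1, H2A, H2B, H3 and H4. Filled points passed FDR 0.05 in limma and open points did not. The 3 filled points below 0 are H1f0, H1f8 and H1f10, and the highest point is H4c12.

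Genes called higher stood on both sides of a split by sequence sharing, and the difference between the sides was not tested. The split used windows of 50 bases, and the read length of each library is not stated. Over all 61 histone genes the median unshared share was 56.8% at 50 bases and 82.6% at 150 bases. Read length may therefore differ between the groups compared, and its part in these calls was not tested. Of the core genes tested with at least 50% unshared windows, 14 of 26 were called higher, and of those with less, 11 of 23. Among all genes tested, 3.95% were called higher. The medians were 2.17 and 2.12 on the log2 scale. Of the 4 core genes tested with at least 90% unshared windows, 2 were called higher, with a lower median of 1.07. Of the 30 core genes tested with no exon of another gene on them, 18 were called higher, with a median of 2.51. Promoter letters were likewise spread over both sets. TATAAA stood in 11 of 25 promoters of genes called higher and in 13 of 30 others, CANNTG in 17 of 25 and 15 of 30, TAATTG in 2 of 25 and 4 of 30, and the octamer in 3 of 25 and 9 of 30.

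**Figure D4:**
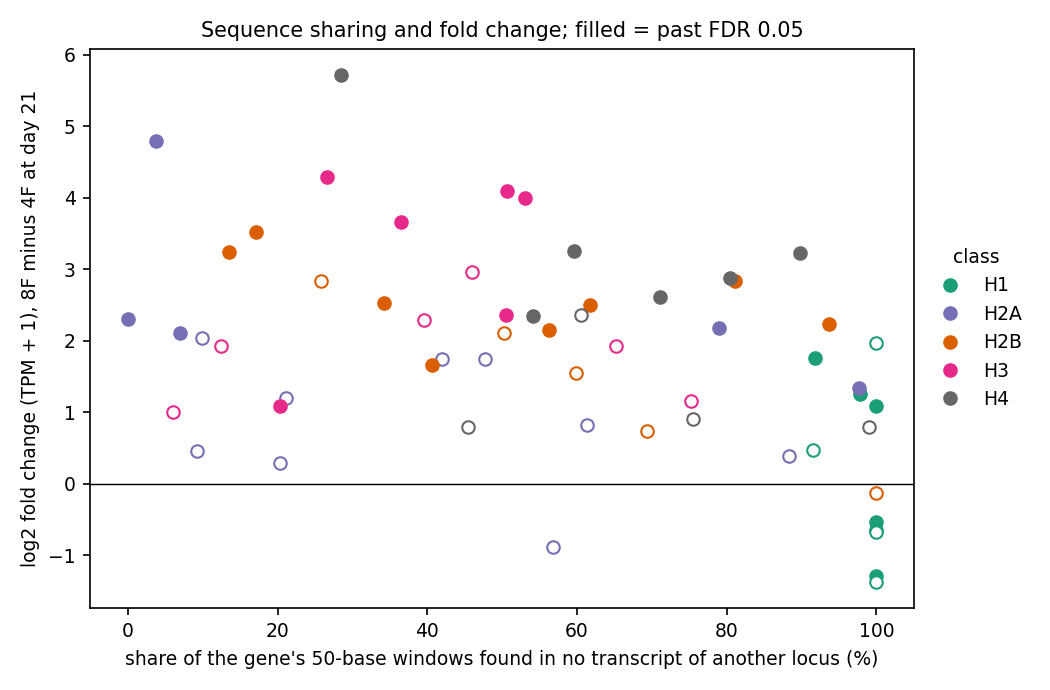
Log2 fold change, 8F minus 4F at day 21 (y axis), of each histone gene tested against the share of its 50-base windows found in no transcript of another locus (x axis, %), coloured by class, with filled points past FDR 0.05. Genes called higher lie along the whole axis, from H2ac19 at 0% to H1f1 at 100%, and the points below 0 that are filled are linker genes at 100%.

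The comparison of day 21 with day 7 in 4F follows the same factor set with time in culture. It shares the 4F libraries of day 21 with the comparison above, so the fold changes of both are tied and are given side by side only. Of the 59 genes tested, 8 (13.6%) rose and 31 (52.5%) fell, where 40.6% of all genes were called, 25.3% higher and 15.3% lower. The libraries of day 21 lay above both of day 7 in 10 of the 59 genes and below in 35, where 33.8% and 22.9% of all genes did so. All genes were split at 5516 higher and 3331 lower in TPM, at 4193 and 4431 after median-of-ratios rescaling and at 3251 and 5425 in the fit on estimated reads, and the median of all genes moved from 0.17 to -0.06 and -0.32. The histone genes were split at 8 and 31, at 7 and 32, and at 3 and 35 in these fits. By class, 4 of 10 H1 genes rose and 4 fell, 2 of 14 H2A genes rose and 7 fell, 2 of 13 H2B genes rose and 8 fell, 5 of 12 H3 genes fell and 7 of 10 H4 genes fell. No H3 or H4 gene rose. Of the core genes tested with at least 50% unshared windows, 3 of 26 rose and 15 fell, with a median of -1.93. Of those with less, 1 of 23 rose and 12 fell, with a median of -3.28. Of the 4 with at least 90% unshared windows, 2 rose and 1 fell, with a median of 0.54. The 2 that rose, H2ac1 and H2bc18, lost their calls in the fit on estimated reads. Exons of other genes lie on 33.1 and 100% of their bases. The fall of H2bc6, with 11.2% of its bases so covered, was called in all 10 other settings. The differences between these sets were not tested.

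The genes that rose were H1f0, H1f1, H1f8, H1f10, H2ac1, H2ac19, H2bc4 and H2bc18, and of these H1f0, H1f8 and H1f10 kept the call in the fit on estimated reads. The core genes among them rose by 1.21 (H2ac1), 1.98 (H2ac19), 1.07 (H2bc4) and 1.05 (H2bc18) on the log2 scale. H2bc1, with 1.23, missed the threshold (adjusted p = 0.0575, limma). H2ac18, the near-identical copy of H2ac19, was called lower (-1.27), and reads cannot be divided between these copies with certainty. The opposite calls therefore cannot be assigned to single copies. H4c12 had the deepest fall of the histone genes (-7.90 log2 units, SE 0.300, adjusted p = 3.79e-05, limma), and H2bc15 followed (-7.06, SE 0.374, adjusted p = 7.04e-05, limma). Both were listed at 0 in all 4F libraries of day 21, so their fitted fold changes depend on the pseudocount. Falls of more than 5 log2 units were also fitted for H2ac15 (-5.80), H2bc7 (-5.41), H2bc14 (-5.29) and H2bc13 (-5.24).

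The remaining falls ran through all core classes. In H2A, H2ac4, H2ac10, H2ac13, H2ac14, H2ac18 and H2ac21 fell by 1.27 to 4.23 log2 units, H2ac10 from 165 and 88.6 TPM to 5.88, 3.17 and 9.86 TPM. In H2B, H2bc3 fell by 4.86, H2bc6 by 2.67, H2bc8 by 2.55 and H2bc9 by 1.95. In H3, H3c1, H3c2, H3c3, H3c4 and H3c6 fell, with log2 fold changes of -1.60, -4.66, -4.35, -3.77 and -3.97. In H4, H4c1, H4c3, H4c4, H4c8, H4c9 and H4c11 fell by 1.91 to 3.19. H4c2, H4c6 and H4c14 were called in neither direction, with 51.8 and 70.3 TPM against 58.6 to 115 TPM for H4c2.

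**Figure D5:**
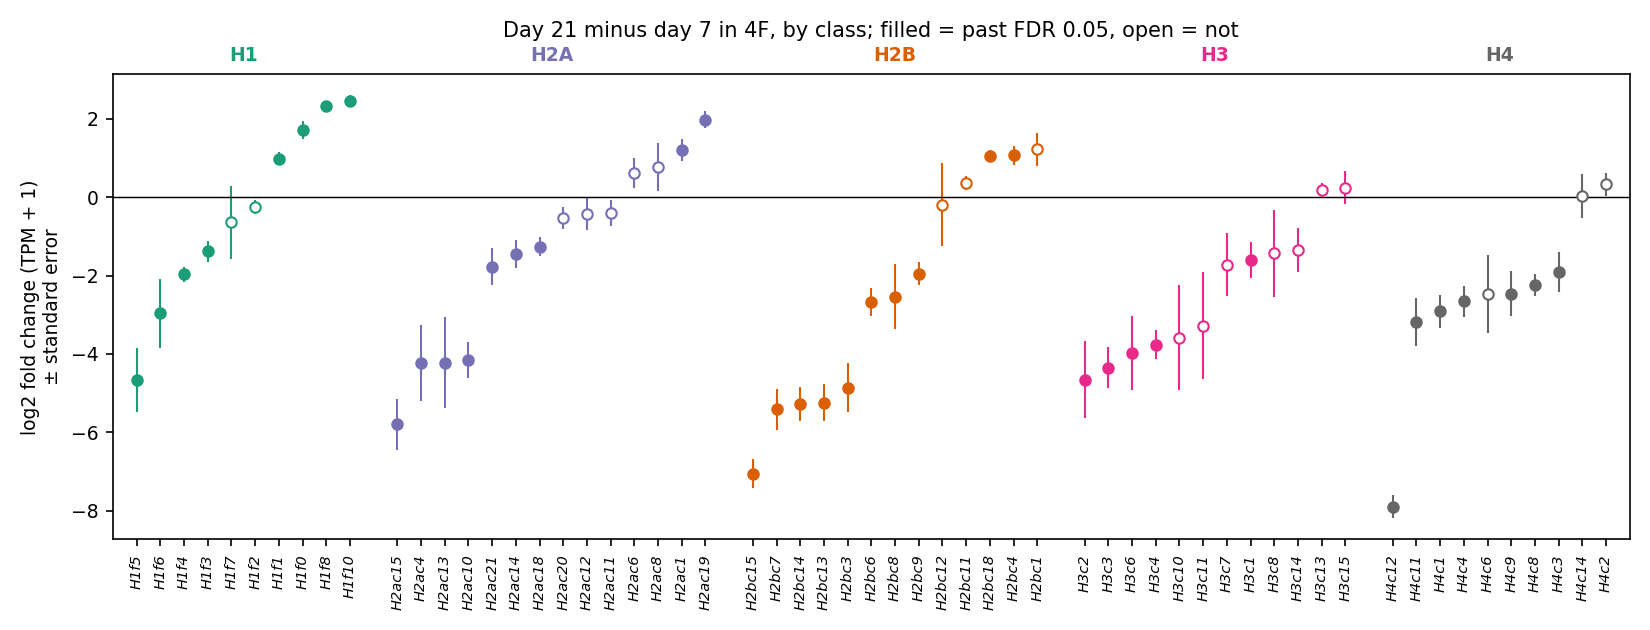
Log2 fold change of TPM + 1, day 21 minus day 7 in 4F (y axis, with the standard error, SE, as bars), for the 59 histone genes tested, ordered within the classes H1, H2A, H2B, H3 and H4. Filled points passed FDR 0.05 in limma and open points did not. H1f0, H1f1, H1f8 and H1f10 are the filled H1 points above 0, no filled point of H3 or H4 lies above 0, and the lowest point is H4c12.

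In 8F at day 21 against 4F at day 7, which shares libraries with both comparisons above, 13 of the 59 genes (22%) were higher and 11 (18.6%) lower, where 37.2% of all genes were called, 24.2% higher and 13% lower. Higher were H1f1, H1f8 and H1f10, H2ac1, H2ac18 and H2ac19, H2bc1, H2bc4, H2bc11 and H2bc18, H3c13 and H3c15, and H4c2. H2ac19 had a log2 difference of 4.29, H3c15 of 3.90, H2bc1 of 3.72 and H2ac18 of 3.53, and the others lay between 0.93 and 2.55. Lower were H1f6, H2ac10, H2ac15, H2bc3, H2bc7, H2bc13, H2bc14, H2bc15, H3c4, H4c11 and H4c12, with log2 differences between -4.34 (H1f6) and -1.72 (H2bc13). H4c12, at 38.0 and 70.8 TPM in 8F, thus stood below the 261 and 216 TPM of day 7 (log2 difference -2.17, adjusted p = 0.00325, limma). The class sums of 8F over day 7 were 3.05-fold for H1, 2.81-fold for H2A, 2.16-fold for H2B, 1.36-fold for H3 and 1.15-fold for H4.

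The order of levels changed between groups. H1f1 led at day 7 with 894 ± 25.9 TPM (SD, n = 2), followed by H1f8 with 709 ± 72.2, H2bc18 with 501 ± 90.9 and H1f2 with 354 ± 18.6 TPM. H1f8 led in 4F at day 21 with 3582 ± 198 TPM (SD, n = 3), followed by H1f1 with 1786 ± 275, H2bc18 with 1035 ± 97.0 and H2ac1 with 341 ± 122 TPM, the last within its spread of H1f2 with 300.3 ± 16.6 TPM. H1f1 led in 8F with 3810 ± 583 TPM (SD, n = 2), followed by H1f8 with 2467 ± 54.0, H2bc18 with 944 ± 46.9, H2ac1 with 835 ± 102 and H2bc1 with 777 ± 37.5 TPM. The last 2 of these differed by less than the SD of H2ac1. Levels of genes annotated with coding bases only, 10 of the 61, are set by a length that leaves out the rest of the mRNA.

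Genes that make and process histone mRNA were counted as well. Of 23 such genes listed, 10 rose, 0 fell and 13 were not called from day 7 to day 21 in 4F, where 25.3% of all genes rose and 15.3% fell, with a median log2 fold change of 0.58 against 0.17 over all genes. These are values of the TPM fit only. On estimated reads the median of all genes over time was -0.32, so the size of such rises depends on the scaling. Slbp had 29.5 and 31.9 TPM at day 7, 171, 156 and 146 TPM in 4F at day 21, and 134 and 165 TPM in 8F, a rise over time of 2.32 (adjusted p = 8.46e-05, limma) with overlapping groups at day 21. Lsm10, of the U7 snRNP, rose by 2.34, and Lsm1, Snrpd3, Cstf2, Eri1, Hinfp, Cpsf3, Zfp473 and Upf1 rose by 0.58 to 1.78. Npat, the cyclin E target that turns on histone genes in S phase, had 28.8 and 24.7 TPM, then 20.3, 11.3 and 16.4 TPM, then 13.6 and 13.2 TPM, and was called only between 8F and day 7 (-0.94). Between 8F and 4F at day 21, Snrpe was higher (1.15), Ccne1, which encodes a cyclin E, was lower (-1.02), and the other 21 were not called.

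Genes of S phase and proliferation were counted beside them. Of 15, 11 rose over time in 4F and 0 fell, where 25.3% and 15.3% of all genes did so. Changes over time in this paragraph are from the TPM fit only. The median of all genes was 0.17 in that fit and -0.32 on estimated reads, so their size depends on the scaling. The 11 that rose were Pcna, Mcm2, Mcm3, Mcm5, Mcm6, Mcm7, Mki67, Top2a, Ccna2, Ccnb1 and Cdk1, by 0.64 to 1.64 log2 units. Between 8F and 4F at day 21, Ccnb1, the cyclin of meiotic maturation, was higher (148, 111 and 115 TPM in 4F against 277 and 263 TPM in 8F) and Top2a was lower (-0.63). Of the 13 histone variant genes outside the clusters, H3f3a and H3f3b, which both encode H3.3, were higher in 8F than in 4F, by 2.19 and 0.83. H3f3a had 181 and 208 TPM at day 7, 38.7, 19.5 and 52.5 TPM in 4F at day 21 and 166 and 152 TPM in 8F, a fall over time of 2.47. H3f3b had 201 and 232 TPM, then 409, 361 and 395 TPM, then 673 and 705 TPM, rising over time by 0.84. H2aj was lower in 8F (-1.69), while over time H2ax rose by 1.86 and H2az1 and Macroh2a2 fell by 1.43 and 1.36. The part of the S phase genes in the levels of the histone genes was not tested.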

How the data were processed

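RNA-seq values of 7 libraries were used, and group and replicate of each library came from the sample labels. Per the authors, reads were trimmed (Trim Galore!), mapped to mm10 (Hisat2), cleared of rRNA (Bedtools) and limited to unique mappings. featureCounts then assigned them to GENCODE vM25 genes, dividing a read that overlaps several genes between them, and the authors deposited TPM, which are reads per exon length scaled to the same total in each library. Tool versions are not given in the sources used here. The methods name instruments with different read lengths and do not say which library ran on which.

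The fit used the 21780 of 55364 genes that reached 1 TPM in 2 or more libraries, on log2(TPM + 1) values, so that fold changes of low genes are understated, with limma 3.58.1 in R 4.3.3 (lmFit and eBayes with a trend, all 7 libraries in 3 groups). Tests were two-sided with Benjamini-Hochberg adjustment over all genes tested and a threshold of 0.05, and the procedure was tested on simulated data. The study tested counts with edgeR, and those counts were not used here. Reads per gene were estimated from the steps of low TPM values and the exon lengths of GENCODE vM21. Of values under 10 reads, 78.9 to 82.1% came out whole within 0.01, and 98.9 to 99.6% were multiples of a sixth of a read, since reads were counted in fractions. They served for depth and for one alternative fit. Counting error limits genes with few reads, PCR reads are not independent molecules, and the floor of 3 reads covers counting error only.

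Coordinates and exons are those of GENCODE vM21 (mm10), which matched all 61 genes with their version. Sharing was counted as windows of 50 or 150 bases found on either strand in transcripts of genes at other loci, since no genome was used. Stem-loops were searched in GENCODE transcripts after the stop codon, and promoters are RefSeq sequences of GRCm38.p6, of which 55 matched by symbol. Class sums carry no test. The genes, gene lists and tests were chosen with earlier results of these data known. Named with values, or within a range of fold changes, are genes past the threshold in any comparison and genes whose mean reached 20 TPM in any group. All linker genes, H4c12, Slbp, Npat, H3f3a, H3f3b and listed genes past the threshold are named as well. The 4 genes with the highest mean per class are given in every library. Promoters and overlapping genes shown singly were chosen after values were seen. Alternatives were the pseudocount, the filter, 2 rescalings, fits without the trend, with array weights, on 2 groups, with a replicate block and on estimated reads, and leaving out each library.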

Additional observations from a re-analysis of the deposited data

How the results depend on the processing

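Under the other settings no called histone gene changed sign. The count of histone genes called between 8F and 4F at day 21 (31) was 17 without a variance trend (4.56% of all genes called) and ranged from 3 to 29 with single libraries left out. Over time in 4F the count (39) ranged from 31 to 39 with libraries left out, and in 8F against day 7 (24) from 18 to 27. In the remaining settings, the replicate block apart, the counts ran from 17 to 38, 31 to 39 and 20 to 30. The shares of all genes called ran from 4.45 to 16.4%, 22.6 to 51.8% and 21.2 to 47.1% in these settings, against 8.37%, 40.6% and 37.2% in the main fit. Correlations of deviations ran from -0.037 to 0.037 between libraries of different groups, with equal and unequal replicate numbers alike. At day 7 and in 8F, the deviations of each group's libraries mirror each other. These correlations therefore cannot decide whether equal numbers mark a shared induction. With the replicate block, 11 were called between 8F and 4F at day 21, at 0.753% of all genes.

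Class sums moved by more than the spread between libraries as follows, on the log2 scale, and the cause was not tested. Median-of-ratios rescaling gave ratios over time of 1.04 (H1), -0.79 (H2A), -0.071 (H2B), -2.27 (H3) and -2.47 (H4). Quantile normalization gave 1.21, -0.999, -0.20, -2.40 and -2.65 over time and 0.94 for H2B between 8F and 4F. Shares of estimated reads gave 0.71, -0.92, -0.41, -2.59 and -2.56 over time, and 1.11 (H2B), 2.83 (H3) and 2.57 (H4) between 8F and 4F. Summing only genes with at least 50% unshared windows, chosen after seeing the data, gave 0.51 (H2A), 0.66 (H2B) and -2.17 (H3) over time, and 1.29 (H2A), 0.63 (H2B), 2.84 (H3) and 2.655 (H4) between 8F and 4F. Sharing was not counted against a genome. Low counts limit the genes at or near 0.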

Other observations

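The core histone genes were also counted by chromosome. Of the core histone genes tested on chromosome 3, 2 of 9 fell and 2 rose from day 7 to day 21 in 4F (H2ac18 and H2ac21 fell, H2ac19 and H2bc18 rose), with a median log2 fold change of 0.02, whereas on chromosome 13 25 of 40 fell and 2 rose, with a median of -2.60, where 25.3% of all genes rose and 15.3% fell. Between 8F and 4F at day 21, 5 of 9 and 20 of 40 were higher, with medians of 1.93 and 2.19, where 3.95% of all genes were higher. In 8F against day 7, 5 of 9 genes on chromosome 3 were higher and 0 lower, while 5 of 40 on chromosome 13 were higher and 10 lower, where 24.2% of all genes were higher and 13% lower. The difference between the clusters was not tested, and on chromosome 3 exons of other genes lie wholly over H2ac18, H2ac19, H2bc18, H3c13 and H3c14. H2ac18 and H2ac19 are near-identical copies, so their opposite calls over time cannot be assigned to single copies.

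Genes with and without the searched stem-loop were counted in the same way, where 25.3% of all genes rose and 15.3% fell. Of 35 tested genes with it, 1 rose and 21 fell from day 7 to day 21 in 4F. Of 9 tested genes with at least 16 annotated bases after the stop codon and no such stem-loop, 5 rose (H1f0, H1f1, H1f8, H1f10 and H2bc4) and 1 (H4c1) fell. The difference between these sets was not tested, and an annotated tail may end before the stem-loop. The loop form ending in a was found in H1f6, H2bc3 and H2bc12 among others.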
